A study of Mus musculus with 6 samples.

Results

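The Wnt ligands, their receptors and their secreted regulators were examined in PDVC57, an established mouse squamous carcinoma line of keratinocyte origin. Members were chosen by gene symbol: the Wnt ligands, the frizzled receptors, the Sfrp inhibitors 1 to 5, the Dkk inhibitors 1 to 4, Wif1, the R-spondins 1 to 3, the coreceptors Lrp5 and Lrp6, and the feedback gene Axin2. The rule found 44 genes among the 55385 mouse genes of the count table: 19 ligands, 10 frizzled receptors, 2 coreceptors, 3 R-spondins, 9 secreted inhibitors and Axin2. RNA was sequenced in bulk from 3 libraries labelled Sox2 KO (knockout) and 3 labelled Sox2 overexpression. The series' text describes Sox2-low and Sox2-high carcinoma cells taken from grafted tumours, studied for what Sox2 switches on in tumour stem cells that acts on neutrophils. No library of unmodified PDVC57 cells was analysed here, so a difference between the groups cannot be assigned to the loss or to the gain of Sox2. The labels give no vector, clone, host strain, tumour age or sorting gate, and do not say that the libraries of a group came from separate tumours or cultures. The p-values therefore measure the spread between these libraries.

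Library totals ran from 31247976 to 38543221 counts. Levels are counts scaled to the library size (CPM) after TMM scaling, and changes are log2 fold changes of overexpression over knockout from edgeR, called at an adjusted p under 0.05 over 18504 tested genes. Sox2 was at 1.44, 1.12 and 0.685 CPM in the knockout libraries and at 78.3, 128 and 104 CPM in the overexpression libraries, in the order that the labels give. All 31 epithelial markers were tested, 24 were higher with overexpression and none lower, and their summed level was 8136 to 12700 CPM in knockout and 21150 to 26880 CPM in overexpression libraries. All 10 fibroblast markers, led by the collagens, were lower with overexpression: their summed level was 53170 to 81040 CPM in knockout and 246 to 388 CPM in overexpression libraries. Of 8 mural cell markers 7 were lower, and these 7 summed to 92.4 to 145 CPM against 1.80 to 2.33 CPM. Notch3 was higher, at 29.8 to 53.5 CPM against 59.1 to 73.7 CPM. All 8 summed to 122 to 198 CPM against 60.9 to 75.6 CPM. Of 8 tested endothelial markers 7 were lower, and these 7 summed to 27.2 to 97.1 CPM against 3.845 to 5.54 CPM. Tek did not pass, at 9.67 to 34.4 CPM against 9.34 to 16.9 CPM. All 10 endothelial markers summed to 37.4 to 135 CPM against 14.0 to 20.8 CPM. In each overexpression library 3 or 4 of these 10 genes were at 3 counts or fewer. Of 10 tested white blood cell markers 7 were lower, and these 7 summed to 20.7 to 162 CPM against 1.04 to 2.57 CPM. All 12 markers of that list summed to 43.7 to 190 CPM against 26.05 to 66.9 CPM, which overlap. Among the 7 that fell, Ptprc, which marks white blood cells as a class, was at 10.6 to 88.1 CPM against 0.427 to 0.541 CPM. Cd14 was higher, and Csf1r and Cd68 did not pass. In bulk RNA, fewer cells of a type and less RNA per cell cannot be told apart. Fibroblast markers and most tested mural, endothelial and white blood cell markers thus moved with the groups, in the direction of the members that fell. Their part in the results below was not tested.

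Wnt proteins are secreted, lipid-modified ligands that bind frizzled receptors on nearby cells. With the coreceptors Lrp5 and Lrp6 they stabilise beta-catenin, which acts with Tcf and Lef factors on target genes such as Axin2, while other Wnt proteins act through frizzleds and Ror receptors without beta-catenin. R-spondins raise the amount of frizzled at the cell surface, Sfrp proteins and Wif1 bind Wnt proteins outside the cell, and Dkk1, Dkk2 and Dkk4 block the coreceptors. In skin the epidermis and the dermal fibroblasts each make their own set of these ligands and regulators, and the pathway is known for its part in hair follicle growth and in epithelial stem cells.

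Of the 44 members, 32 had enough counts to be tested. Of these, 23 passed the threshold, 4 higher and 19 lower with Sox2 overexpression. Among all tested genes 31.6% were called, 13.6% higher and 18.0% lower. The 4 members that rose were the ligands Wnt4, Wnt7a and Wnt7b and the receptor Fzd5. The 19 that fell were 7 ligands, 5 frizzled receptors, the 2 tested R-spondins and all 5 tested secreted inhibitors. The coreceptors and Axin2 did not pass. The libraries of the groups did not overlap for 25 of the 32 members, against 50.9% of all tested genes. The median log2 fold change was -1.27 over the tested members and -0.02 over all tested genes. Of the 32 members, 10 passed the filter on low counts through the knockout libraries alone, and all 10 were lower, so the counts above lean that way by construction. Among the 21 members with at least 10 counts in every library, 4 were higher and 9 lower, against 15.8% and 11.9% of the genes with such counts.

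Libraries can also be scaled to the epithelial markers, which lowers the fold change of genes in general. That scaling could weaken the 4 rises but not the 19 falls, so it is no check on the falls. On a ratio to fibroblast markers, given below, 13 of the 19 were higher in every overexpression library. The same held for 95.3% of all tested genes. When libraries were scaled to the epithelial markers, the median log2 fold change of all genes moved from -0.02 to -1.19, and 78.7% of genes were called. Under that scaling none of the 32 tested members was higher, against 1.88% of all genes, and 28 were lower, against 76.8%. Wnt7a kept its sign under it, with a log2 fold change of 0.37, while Wnt7b, Wnt4 and Fzd5 changed sign. Changes are therefore read below relative to all genes, on the TMM scale, with the epithelial-scaled value beside each member that rose.

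Promoter letters were read from RefSeq for the members with an entry, to show what the sequence before the start of genes that moved in opposite directions looks like. RefSeq on GRCm38.p6 gave 31 windows for 28 of the 44 members, each the 250 bases before a start. For 23 of the 31, the bases from that start on matched a GENCODE transcript of the gene. Several windows reach past the GENCODE start of their gene, those of Wnt4, Wnt2, Wnt2b, Fzd9 and Dkk1 among them. The Fzd10 window lies within its gene, as do some windows of Wnt5b and Wnt11. The median GC content of the 31 windows was 68% with 22 CG pairs, against 52.4% and 6 CG pairs over all 32851 windows. The 3 windows of Fzd5, Wnt4 and Wnt7a had 76.4% to 85.2% GC, and the 14 windows of members that fell had 51.2% to 84.4%, so the ranges overlap. The windows of Sfrp2 (chr3:83766071-83766320, plus strand, 63.6% GC, 16 CG pairs) and Wnt7a (chr6:91411354-91411603, minus strand, 77.6% GC, 34 CG pairs) are shown because the inhibitor Sfrp2 fell and the ligand Wnt7a rose. They were chosen after the values were seen, and capitals mark CG pairs.
Sfrp2: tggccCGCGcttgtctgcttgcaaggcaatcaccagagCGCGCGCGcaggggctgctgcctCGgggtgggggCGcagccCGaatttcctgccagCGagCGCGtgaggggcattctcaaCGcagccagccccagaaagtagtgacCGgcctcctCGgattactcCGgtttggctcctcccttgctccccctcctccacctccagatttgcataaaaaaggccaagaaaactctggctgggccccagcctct
Wnt7a: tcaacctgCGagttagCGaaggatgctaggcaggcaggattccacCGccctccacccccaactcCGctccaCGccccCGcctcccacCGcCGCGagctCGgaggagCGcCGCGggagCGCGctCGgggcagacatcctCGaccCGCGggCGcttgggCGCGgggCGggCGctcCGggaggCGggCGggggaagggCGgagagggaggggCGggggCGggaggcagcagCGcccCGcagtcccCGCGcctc
The CG pairs run through most of the Wnt7a window and lie mainly in the far part of the Sfrp2 window, away from the start.

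The same windows were searched on both strands for the letters CATTGTT and CTTTGTT, bound by Sox factors, and ATCAAAG and TTCAAAG, bound by Tcf and Lef factors. One or the other was in 4 of the 31 member windows (12.9%) and in 14.9% of all windows. Sox letters were in 2 member windows (6.45%, against 8.12% of all windows), and Tcf or Lef letters in 3 (9.68%, against 7.48%). The letters of the 2 sets overlap in 7 windows of the whole table. None of the 3 windows of members that rose held either set. Of the 14 windows of members that fell, 1 did, that of the ligand Wnt5b (chr6:119449387-119449636, minus strand), which lies within the gene as GENCODE draws it. It is shown as the only such match, with the match in capitals, written on the strand of the gene, where it reads as the reverse complement of ATCAAAG and starts 71 bases before the start.
Wnt5b: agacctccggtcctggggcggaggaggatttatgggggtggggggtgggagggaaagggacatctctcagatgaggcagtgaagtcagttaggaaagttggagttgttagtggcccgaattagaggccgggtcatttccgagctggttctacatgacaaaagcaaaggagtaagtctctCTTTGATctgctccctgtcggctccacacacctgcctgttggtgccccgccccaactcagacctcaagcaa
A match is a run of letters only, and the absence of one says nothing about binding elsewhere.

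**Figure D1:**
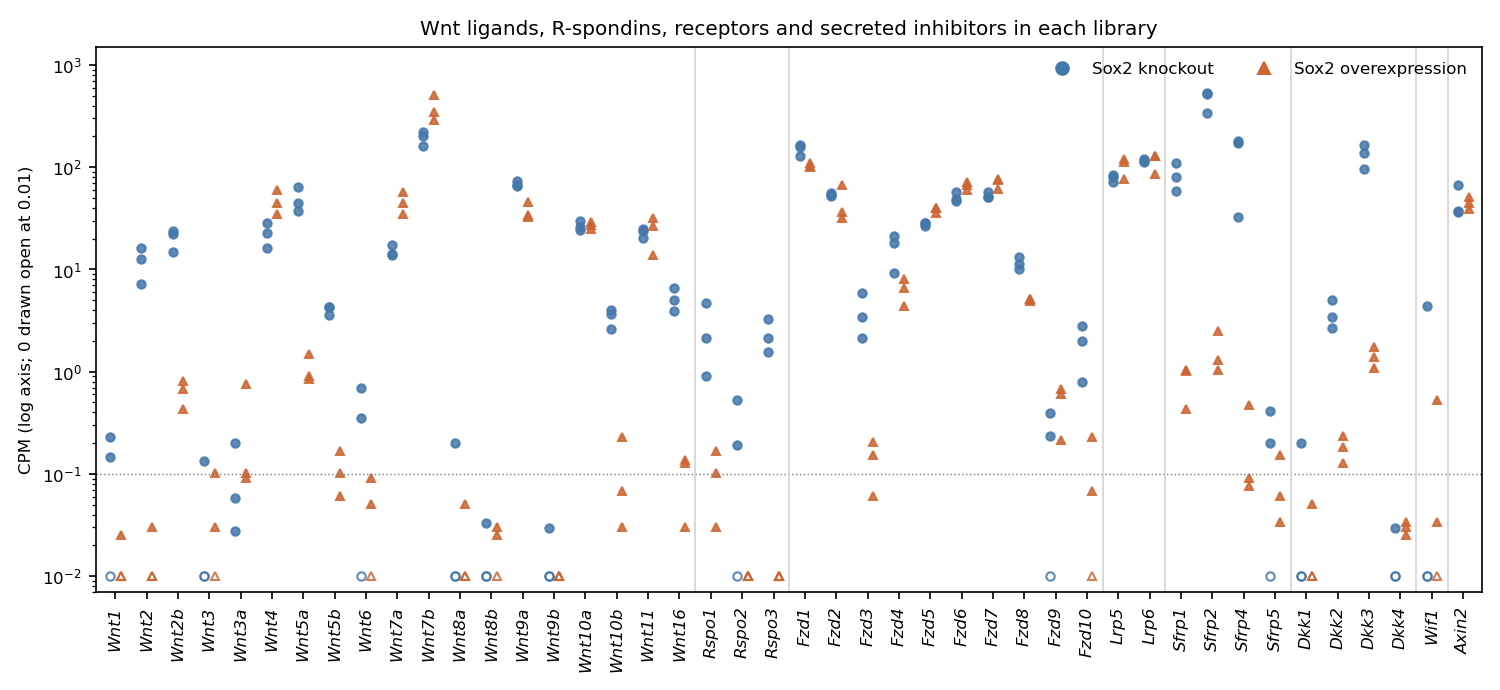
Level of all 44 members in each of the 6 libraries, in CPM on a log axis, grouped by role (circles are knockout libraries, triangles overexpression libraries, open symbols at 0.01 CPM are zeros, and the dotted line is at 0.1 CPM). The inhibitors Sfrp2, Sfrp1, Sfrp4 and Dkk3 stand above 30 CPM in every knockout library and at or below 2.48 CPM in every overexpression library.

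Among the 12 tested ligands, 3 rose, 7 fell and 2 did not pass the test, where 13.6% of all tested genes were higher and 18.0% lower. Wnt2, Wnt16, Wnt5b and Wnt10b passed the filter on low counts through the knockout libraries alone, so the falls lean that way by construction. Of the 8 ligands with at least 10 counts in every library, 3 were higher and 3 lower, against 15.8% and 11.9% of the genes with such counts. Wnt7b, an epithelial ligand that signals through beta-catenin (chr15:85535437-85582473), was the most abundant ligand of either group. It was at 221, 160.1 and 200.1 CPM in the knockout libraries and at 349, 509 and 289 CPM in the overexpression libraries. Every overexpression library was above every knockout library. Wnt7b had a log2 fold change of 0.98 (SE 0.23, edgeR, adjusted p = 0.0129), and it turned to -0.22 when libraries were scaled to epithelial markers. Without the second knockout library its adjusted p was 0.0581 (edgeR). Wnt7a, its close relative, also made by epidermis (chr6:91363981-91411363), was at 13.9, 14.2 and 17.4 CPM against 34.8, 57.7 and 44.6 CPM. The groups did not overlap, and the log2 fold change was 1.59 (SE 0.21, edgeR, adjusted p = 0.000633), or 0.37 (adjusted p = 0.198) with epithelial scaling. Wnt4, a ligand of epithelia in many organs (chr4:137277489-137299726), was at 28.4, 23.0 and 16.1 CPM against 59.9, 44.9 and 35.1 CPM. Here too the overexpression libraries all lay higher. Its log2 fold change was 1.05 (SE 0.26, edgeR, adjusted p = 0.0151), or -0.09 with epithelial scaling, and its adjusted p was 0.0513 without the second knockout library.

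Wnt9a (chr11:59306928-59333552), a beta-catenin ligand known from joints and liver, fell the least of the 7 ligands. It was at 73.5, 65.8 and 66.5 CPM in knockout and at 33.8, 45.9 and 32.4 CPM in overexpression libraries. The groups did not overlap and the log2 fold change was -0.88 (SE 0.17, edgeR, adjusted p = 0.00476). Wnt10a, a ligand needed for teeth and skin appendages, was at 24.4 to 29.9 CPM in knockout and 24.9 to 29.4 CPM in overexpression libraries. Wnt11, which acts in cell movement, was at 20.5 to 24.6 CPM against 13.9 to 31.9 CPM. The groups overlapped for both, with log2 fold changes of 0.02 (SE 0.16, adjusted p = 0.939) and 0.07 (SE 0.28, adjusted p = 0.877, edgeR), which epithelial scaling turned to -1.16 and -1.12.

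The other 6 ligands that fell were nearly gone from the overexpression libraries. Wnt5a, the best known ligand that acts without beta-catenin (chr14:28504750-28527448), was at 64.1, 44.5 and 37.2 CPM in knockout and at 0.915, 0.846 and 1.49 CPM in overexpression libraries. Wnt5a fell by 5.46 on the log2 scale (SE 0.32, edgeR, adjusted p = 5.3e-06). Wnt2b (chr3:104945272-104961921), a mesenchymal beta-catenin ligand, was at 23.9, 22.4 and 14.8 CPM against 0.427, 0.676 and 0.809 CPM, a log2 fold change of -4.98 (SE 0.33, adjusted p = 9.76e-06). For both, the lowest knockout library stood far above the highest overexpression library. Wnt2, a relative of Wnt2b (chr6:17988940-18030585), had 247, 492 and 463 counts in the knockout libraries and 1, 0 and 0 in the overexpression libraries. Its mean was 12.1 ± 4.55 CPM (SD, n = 3) in knockout. The summed counts of each group, divided by the group's summed scaled depth, gave a ratio of 1216, with a 95% exact counting interval of 218 to 48060 that covers counting error only. The edgeR adjusted p of Wnt2 was 1.26e-05, and its fitted log2 fold change, -9.80, is no bound and moved to -11.67 without the first overexpression library.

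The last 3 ligands that fell were low even with knockout. Wnt16 (chr6:22288227-22298522), a ligand of bone and skin, was at 3.96, 6.51 and 4.99 CPM in knockout and at 0.0305, 0.135 and 0.127 CPM in overexpression libraries. Its log2 fold change was -5.67 (SE 0.50, edgeR, adjusted p = 5.6e-05). Wnt5b (chr6:119432531-119544347), the close relative of Wnt5a, was at 4.28, 4.3 and 3.56 CPM against 0.061, 0.169 and 0.101 CPM, a log2 fold change of -5.17 (SE 0.43, adjusted p = 4.11e-05). Wnt10b, a beta-catenin ligand of hair follicles (chr15:98770712-98778150), was at 2.61, 4.001 and 3.7 CPM against 0.0305, 0.0677 and 0.228 CPM. The log2 fold change of Wnt10b was -4.87 (SE 0.60, edgeR, adjusted p = 0.000383), and -6.03 without the third overexpression library. None of these 3 overlapped between groups, and their overexpression levels lie near the 0.0759 to 0.101 CPM that 3 counts are worth.

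The R-spondins raise frizzled at the cell surface through Lgr receptors and the ligases Rnf43 and Znrf3. The 2 that were tested were lower. They passed the filter on low counts through the knockout libraries alone, so their direction leans that way by construction. Rspo1 (chr4:124986430-125009099) was at 4.75, 2.12 and 0.904 CPM in knockout and at 0.0305, 0.169 and 0.101 CPM in overexpression libraries. The knockout libraries differed among themselves widely (2.59 ± 1.97 CPM, SD, n = 3), yet none reached down to the other group. Rspo1 had a log2 fold change of -4.66 (SE 0.78, edgeR, adjusted p = 0.00215), and -3.87 without the first knockout library. Rspo3 (chr10:29452416-29535867) had 53, 99 and 78 counts in knockout and 0 in all 3 overexpression libraries. Against a floor of 3 counts per library its level was at least 23.0-fold lower with overexpression (edgeR, adjusted p = 0.000323). Rspo2 was not tested.

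Of the 10 frizzled receptors, 1 rose, 5 fell and 4 did not pass, where 13.6% of all tested genes were higher and 18.0% lower. Fzd3 and Fzd10 passed the filter on low counts through the knockout libraries alone, so the falls lean that way by construction. Of the 7 frizzled receptors with at least 10 counts in every library, 1 was higher and 3 lower, against 15.8% and 11.9% of the genes with such counts. Fzd1 (chr5:4753839-4758035), a receptor for beta-catenin ligands and the most abundant frizzled, was at 166, 158 and 129 CPM in knockout and at 100.2, 109 and 104 CPM in overexpression libraries. The groups did not overlap, and the log2 fold change was -0.53 (SE 0.15, edgeR, adjusted p = 0.0263). The call on Fzd1 was lost without the first or second knockout library (adjusted p = 0.11 and 0.102) and without the first or the third overexpression library (0.0791 and 0.0932, edgeR). Fzd4 (chr7:89404355-89413134), known from blood vessel growth, was at 9.32, 18.2 and 21.1 CPM against 4.42, 8.12 and 6.53 CPM. The groups did not overlap, but the first knockout library stood near the second overexpression library. Fzd4 had a log2 fold change of -1.35 (SE 0.34, edgeR, adjusted p = 0.017), and the adjusted p was 0.06 without the second knockout library, 0.0512 without the third and 0.05 without the third overexpression library. Fzd8 was at 10.1, 11.4 and 13.3 CPM against 4.94, 5.11 and 5.08 CPM, which did not overlap, with a log2 fold change of -1.20 (SE 0.21, adjusted p = 0.00257).

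Fzd3 and Fzd10 fell further, from low levels. Fzd3 (chr14:65192449-65262463), a receptor known from axon guidance and planar polarity, was at 5.89, 3.44 and 2.14 CPM in knockout and at 0.061, 0.203 and 0.152 CPM in overexpression libraries, a log2 fold change of -4.76 (SE 0.58, edgeR, adjusted p = 0.000349). Fzd10 (chr5:128600844-128604093) was at 0.791, 1.98 and 2.8 CPM against 0, 0.0677 and 0.228 CPM. Its log2 fold change was -4.11 (SE 0.86, edgeR, adjusted p = 0.00663), and -5.66 without the third overexpression library. Fzd5 (chr1:64730558-64737751), a receptor of beta-catenin ligands in epithelia, was the only one to rise, at 26.4, 28.4 and 28.4 CPM against 40.3, 36.0 and 40.3 CPM. The spread within each group was small (27.8 ± 1.16 and 38.9 ± 2.52 CPM, SD, n = 3 each). The log2 fold change was 0.48 (SE 0.14, edgeR, adjusted p = 0.029). With epithelial scaling Fzd5 was instead called lower (-0.70, edgeR, adjusted p = 0.0118). Leaving out any library but the second overexpression library moved the adjusted p of Fzd5 to between 0.0616 and 0.102.

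Among the receptors that did not pass, Fzd6 and Fzd7 did not overlap between groups. Fzd6, which orients hairs in the skin, was at 46.6 to 57.9 CPM in knockout and 59.9 to 71.2 CPM in overexpression libraries (log2 fold change 0.37, SE 0.15, edgeR, adjusted p = 0.0931). Fzd7, a receptor of many stem cells, was at 50.8 to 56.9 CPM against 60.7 to 76.7 CPM (0.41, SE 0.15, adjusted p = 0.0637, and 0.0353 without the first overexpression library). Epithelial scaling turned both, to -0.81 and -0.77. Fzd2 overlapped, at 52.8 to 55.5 CPM against 31.5 to 67.4 CPM (log2 fold change -0.25, SE 0.27, adjusted p = 0.5). Without the second overexpression library, its highest value, Fzd2 was called lower (-0.64, edgeR, adjusted p = 0.00696). Fzd9 did not exceed 0.676 CPM in any library. The coreceptor Lrp5 was at 71.0, 80.5 and 84.3 CPM in knockout and at 76.9, 120.4 and 113 CPM in overexpression libraries. The groups overlapped through the first overexpression library (log2 fold change 0.40, SE 0.19, edgeR, adjusted p = 0.147, and 0.0261 without that library), and the sign turned with epithelial scaling (-0.81). Lrp6 was at 119, 115 and 112 CPM against 129.5, 85.9 and 129 CPM, with the second overexpression library below all others and a log2 fold change of -0.01 (SE 0.18, adjusted p = 0.983).

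Of the 9 secreted inhibitors 5 were tested, and all 5 fell, where 18.0% of all tested genes were lower. Sfrp4 and Dkk2 passed the filter on low counts through the knockout libraries alone, so this count leans that way by construction. The 3 with at least 10 counts in every library, Sfrp1, Sfrp2 and Dkk3, were lower as well, against 11.9% of the genes with such counts. Sfrp2 (chr3:83766321-83774316), a Wnt-binding protein known from dermal fibroblasts, was at 339, 515 and 530.0 CPM in knockout and at 1.31, 1.05 and 2.48 CPM in overexpression libraries. Its log2 fold change was -8.13 (SE 0.40, edgeR, adjusted p = 2.18e-06). Sfrp1 (chr8:23411502-23449632), its relative, was at 58.5, 80.1 and 109 CPM against 1.01, 1.05 and 0.43 CPM, a log2 fold change of -6.66 (SE 0.39, adjusted p = 5.25e-06). Both inhibitors were high in all 3 knockout libraries. Sfrp4 (chr13:19623104-19632994), known from bone and connective tissue, was at 32.9, 172 and 180.5 CPM against 0.0916, 0.474 and 0.0759 CPM. Its first knockout library was several times below the others but still far above the other group. The log2 fold change of Sfrp4 was -9.30 (SE 0.90, edgeR, adjusted p = 9.33e-05), and -10.51 without the second overexpression library, which takes the group's mean from 0.214 to 0.0837 CPM.

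Dkk3 (chr7:112116017-112159057), a divergent Dkk protein, was at 137, 164 and 95.7 CPM in knockout and at 1.40, 1.08 and 1.75 CPM in overexpression libraries. Its log2 fold change was -6.54 (SE 0.30, edgeR, adjusted p = 1.92e-06). Dkk2 (chr3:132085292-132180304), which binds the coreceptors, was at 2.70, 5.03 and 3.40 CPM against 0.183, 0.237 and 0.127 CPM, a log2 fold change of -4.34 (SE 0.44, adjusted p = 0.000127). Neither gene overlapped between the groups. Dkk1, Dkk4, Sfrp5 and Wif1 were not tested. Axin2 (chr11:108920349-108950783), the feedback inhibitor that beta-catenin signalling switches on in most tissues, was at 67.3, 36.2 and 37.0 CPM in knockout and at 51.3, 38.6 and 45.0 CPM in overexpression libraries. The overexpression libraries lay between the lowest and the highest knockout library. Axin2 had a log2 fold change of -0.06 (SE 0.25, edgeR, adjusted p = 0.882), 0.31 without the first knockout library and -1.20 (adjusted p = 0.00147) with epithelial scaling.

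**Figure D2:**
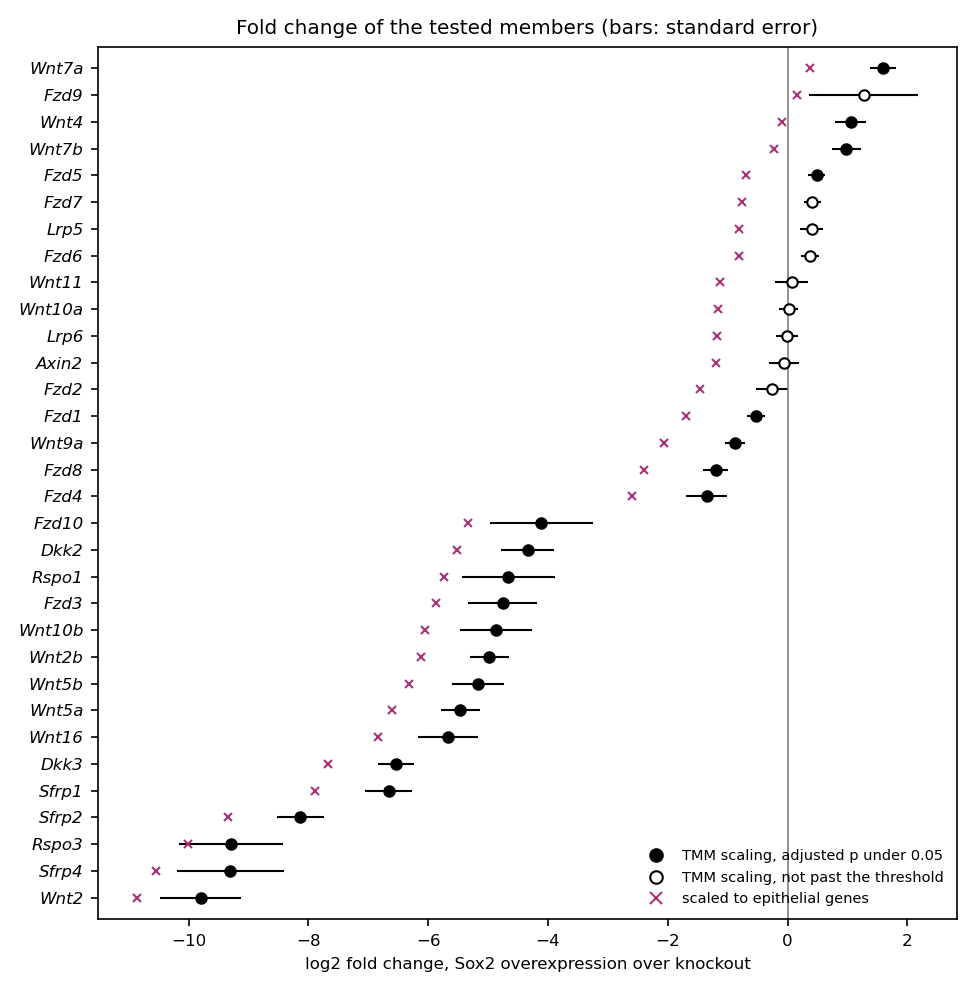
Log2 fold change of overexpression over knockout for the 32 tested members, ordered by size, with bars of 1 standard error, filled where edgeR called the member, and crosses for the value with epithelial scaling. The 5 tested secreted inhibitors lie between -4.34 and -9.30, while Wnt7a, Wnt4, Wnt7b and Fzd5 lie between 0.48 and 1.59, with crosses at 0.37 or below; the fitted values of Wnt2 and Rspo3 are no bounds, as their overexpression libraries hold at most 1 count.

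Levels of different genes were compared per length, as CPM per kilobase of exons. With knockout the ligands ran from Wnt7b (39.5 CPM per kb) through Wnt9a (20.6) and Wnt10a (10.8) to Wnt5a (6.22), Wnt11 (5.56), Wnt4 (5.36), Wnt2 (5.35), Wnt2b (4.85) and Wnt7a (4.79). With overexpression the order was Wnt7b (78.1 CPM per kb), Wnt7a (14.4), Wnt9a (11.2), Wnt4 (11.1), Wnt10a (11.0) and Wnt11 (5.83). Wnt7b was first in both groups, and Wnt9a, Wnt4 and Wnt10a were close to each other with overexpression. Among the receptors, Fzd1 was first in both groups (35.9 and 24.9 CPM per kb), followed with knockout by Fzd2 (14.7), Fzd7 (11.7) and Fzd6 (10.6) and with overexpression by Fzd7 (15.6), Fzd6 (13.7) and Fzd2 (12.3). Lrp5 and Lrp6 were at 8.07 and 8.43 CPM per kb with knockout and at 10.6 and 8.39 with overexpression.

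Summed over each role, ligands and frizzled receptors overlapped between the groups, while inhibitors, R-spondins and coreceptors did not. The ligands summed to 117, 102 and 102.5 CPM per kb in knockout and 120.5, 167 and 109 CPM per kb in overexpression libraries, and the groups overlapped. The frizzled receptors summed to 86.1, 83.6 and 77.0 against 67.1, 83.7 and 71.6 CPM per kb, which overlap as well. The secreted inhibitors summed to 220.3, 351 and 344 against 1.38, 1.28 and 2.16 CPM per kb. The R-spondins summed to 2.95, 2.25 and 1.20 against 0.0158, 0.0873 and 0.0522 CPM per kb. The coreceptors summed to 16.0, 16.7 and 16.8 against 17.4, 18.6 and 21.1 CPM per kb, higher with overexpression on the TMM scale but not with epithelial scaling, where Lrp5 (-0.81) and Lrp6 (-1.17) were both lower. The ratio of inhibitors to ligands was 1.89, 3.44 and 3.35 in knockout and 0.0115, 0.0077 and 0.0197 in overexpression libraries. This ratio needs no scaling between libraries.

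Shares within a role are likewise free of the scaling. Wnt7b made up 38.5%, 32.0% and 39.9% of the summed ligand level (per length) in knockout and 59.2%, 62.4% and 53.9% in overexpression libraries. The share of Wnt7a was 3.77%, 4.40% and 5.35% against 9.11%, 10.9% and 12.9%. Both shares were higher in every overexpression library. The share of Wnt9a was 18.9%, 19.4% and 19.5% against 8.43%, 8.28% and 8.89%, and that of Wnt5a 7.01%, 5.58% and 4.64% against 0.0971%, 0.0649% and 0.174%. Within the receptors, the share of Fzd1 was 45.8%, 45.0% and 39.9% against 35.6%, 31.1% and 34.6%. The share of Fzd7 was 14.6%, 13.6% and 14.6% against 19.96%, 20.2% and 23.0%, and that of Fzd5 was 4.44%, 4.92% and 5.34% against 8.69%, 6.21% and 8.15%. Fzd1 thus took a smaller and Fzd7 and Fzd5 a larger share with overexpression, without overlap. Within the inhibitors, Sfrp2 was 71.4%, 68.2% and 71.6% of the sum against 44.0%, 37.9% and 53.3%. With 3 libraries against 3, an exact two-sided permutation test cannot go below p = 0.10, so no test is given for the sums and shares.

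**Figure D3:**
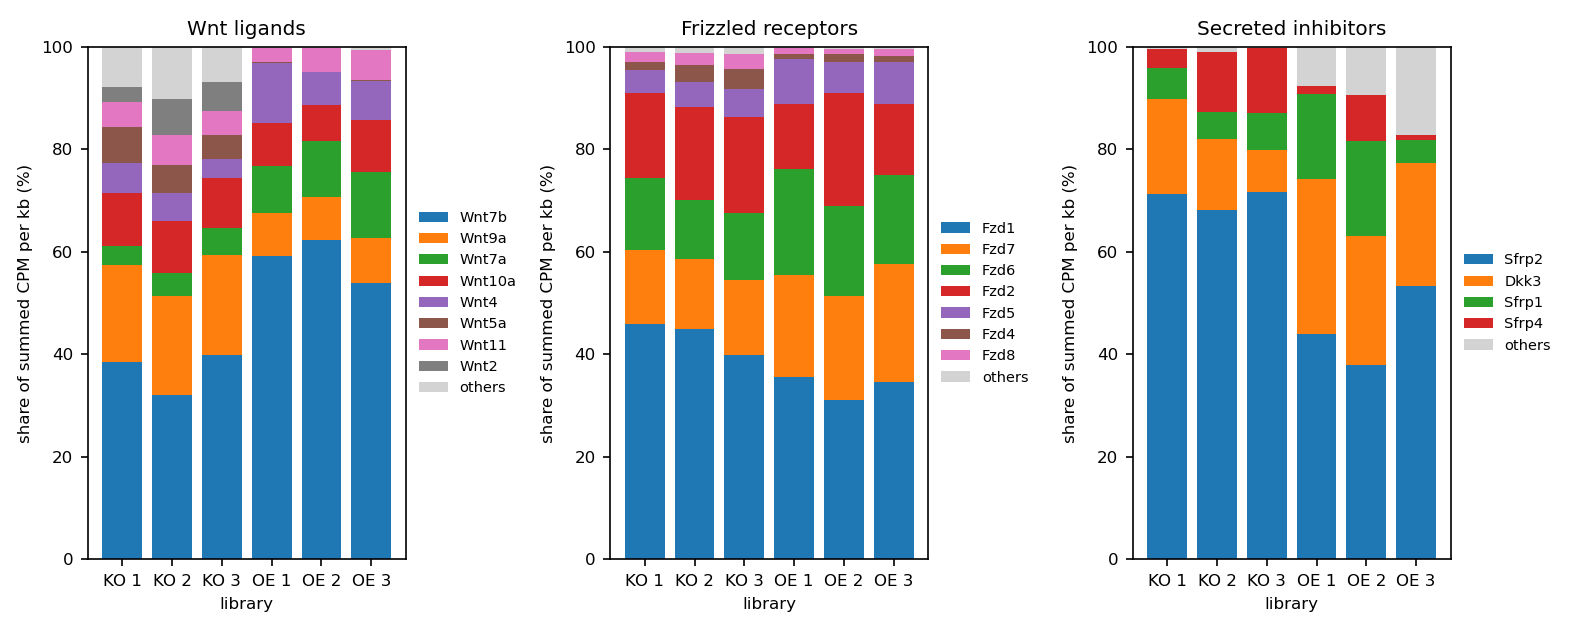
Makeup of the summed ligand, frizzled receptor and secreted inhibitor level in each of the 6 libraries, as a percentage of the sum of CPM per kb in that library. Wnt7b takes 32.0% to 39.9% of the ligand sum in the knockout libraries and 53.9% to 62.4% in the overexpression libraries, and Sfrp2 takes 68.2% to 71.6% and 37.9% to 53.3% of the inhibitor sum.

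Members were also set against the summed fibroblast markers of the same library, since that sum was far lower with overexpression (mean 70150 CPM with knockout, 304 CPM with overexpression). Most of the sum came from Col3a1, Col1a1 and Col1a2, at means of 26730, 23310 and 17500 CPM with knockout. The log2 fold changes of the single markers ran from -6.91 (Thy1) to -9.98 (Dpt). Sfrp2 was at 6.37, 6.35 and 6.95 CPM per 1000 CPM of fibroblast markers in knockout and at 5.33, 3.76 and 6.39 in overexpression libraries. Sfrp2 thus fell nearly in step with that sum, and the groups overlapped on this ratio, as they did for Sfrp1, Sfrp4 and Fzd10. On this ratio 95.3% of all tested genes were higher in every overexpression library, and so were 26 of the 32 tested members, including 13 of the 19 that fell. Wnt5a was at 1.21, 0.550 and 0.488 CPM per 1000 CPM of markers against 3.72, 3.04 and 3.85, and Dkk3 at 2.58, 2.03 and 1.26 against 5.70, 3.88 and 4.50. These 13 fell by less than the fibroblast markers did. Some of them rest on few counts: Rspo1, Wnt16, Wnt5b, Wnt10b, Fzd3 and Dkk2 had 10 to 18 counts summed over the overexpression libraries. Only Rspo3 and Wnt2 were lower on this ratio. The part of fibroblasts in these falls was not tested. At the knockout ratio, Rspo3 would give 1.03 counts over all 3 overexpression libraries and Wnt2 5.32 counts, against 0 and 1 counted.

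Set against the summed epithelial markers, which moved the other way, the members that rose no longer stood higher. Wnt7b was at 17.4, 13.5 and 24.6 CPM per 1000 CPM of epithelial markers in knockout and at 16.5, 19.0 and 10.7 in overexpression libraries. The groups overlapped on this ratio for Wnt7b, Wnt7a and Wnt4, and Fzd5 was lower in every overexpression library. On this ratio 28 of the 32 tested members, the 19 that fell among them, were lower in every overexpression library, as were 77.0% of all tested genes.

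The other genes of the pathway were taken from 7 lists. The lists share some genes, and hold 67 genes not among the members, of which 60 were tested, 11 rose, 20 fell and 29 did not pass, where 13.6% of all tested genes were higher and 18.0% lower. These shares also stand behind the counts for the single lists. Some listed genes passed the filter on low counts through the knockout libraries alone, so the counts of falls lean that way by construction. The middle log2 fold change of these 60 was 0.00066, against -0.02 for all tested genes, and by list it ran from -3.33 (other secreted modulators) and -1.93 (other receptors) to 0.46 (secretion). In ligand secretion, Porcn, the enzyme that acylates Wnt proteins, rose from 42.6 ± 4.01 to 90.5 ± 27.6 CPM (SD, n = 3 each; log2 fold change 1.08, SE 0.22, edgeR, adjusted p = 0.00577; -0.10 with epithelial scaling). Wls, the carrier of Wnt proteins, and Notum, which removes their lipid, did not pass. Among 12 tested receptors and receptor regulators, none rose and 6 fell. Of the 6, Ror2, Reck, Lgr5, Ror1 and Rnf43 had at least 10 counts in every knockout library but not in every overexpression library. Adgra2, a coreceptor of Wnt7 ligands, fell from 116 ± 16.2 to 1.06 ± 0.411 CPM (log2 fold change -6.77, adjusted p = 1.93e-06), and Reck, its partner, by 8.11 on the log2 scale (adjusted p = 5.37e-06; -8.74 without the third overexpression library). Ror2, the receptor kinase for Wnt5a, fell by 6.01 on the log2 scale (edgeR, adjusted p = 1.56e-06). Lgr5, an R-spondin receptor that the target list also holds, fell from 8.74 ± 1.53 to 0.202 ± 0.0587 CPM.

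Of the 5 tested further secreted modulators, 3 fell and 1 rose. Igfbp4, an IGF-binding protein that also blocks Wnt receptors, fell from 533 ± 177 to 4.06 ± 1.53 CPM (edgeR, adjusted p = 4.83e-06), Cthrc1 by 8.64 on the log2 scale (adjusted p = 6.93e-06; -9.84 without the second overexpression library) and Apcdd1 from 48.1 ± 13.3 to 4.77 ± 1.34 CPM (adjusted p = 4.35e-05). Tinagl1, a matrix protein, rose from 112 ± 12 to 354 ± 83.7 CPM (log2 fold change 1.66, SE 0.20, edgeR, adjusted p = 0.000365; 0.46 with epithelial scaling). Of 14 genes of the relay from Dvl to beta-catenin, 13 did not pass, Ctnnb1 among them (log2 fold change 0.33, adjusted p = 0.233). The kinase Csnk1e rose by 0.66 (edgeR, adjusted p = 0.0102), which turned to -0.52 with epithelial scaling, and its adjusted p was 0.0541 without the second knockout library.

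In the nucleus 4 of 12 genes rose and 4 fell. Tcf7 rose from 14.3 ± 2.19 to 30.01 ± 7.55 CPM (edgeR, adjusted p = 0.00582), while Tcf7l1 fell from 17.8 ± 7.28 to 3.79 ± 0.627 CPM (adjusted p = 0.000952) and Tcf7l2 from 32.5 ± 2.67 to 20.3 ± 2.17 CPM (adjusted p = 0.0113). These 3 are DNA-binding partners of beta-catenin. The corepressor Tle1 rose by 1.12 and the cofactor Pygo2 by 0.68 on the log2 scale, while Pygo1 fell by 5.85 (edgeR, adjusted p = 2.11e-05). The call on Tcf7l2 was lost without the third knockout or the third overexpression library (edgeR, adjusted p = 0.0543 and 0.0532), and that on Pygo2 without the second or the third knockout library (0.0694 and 0.0724). Epithelial scaling turned Tcf7, Tle1 and Pygo2, to -0.12, -0.02 and -0.51. Of 12 tested common targets, 3 rose, 5 fell and 4 did not pass. Ccnd1, a cyclin, rose from 293 ± 17.9 to 668 ± 112 CPM (log2 fold change 1.19, SE 0.17, edgeR, adjusted p = 0.00104; 0.00 with epithelial scaling). The feedback inhibitors Nkd1 and Nkd2 moved in opposite directions: Nkd1 fell from 14.1 ± 5.47 to 0.234 ± 0.0704 CPM (adjusted p = 1.62e-05) and Nkd2 rose from 14.8 ± 4.15 to 119.9 ± 44.4 CPM (log2 fold change 3.02, SE 0.32, adjusted p = 0.000151). Nkd2 was the one gene of these lists still higher under epithelial scaling (log2 fold change 1.85, edgeR, adjusted p = 0.000134).

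Of 9 planar polarity genes, which orient cells within a sheet, 2 rose and 5 fell. Celsr1 rose from 50.2 ± 8.55 to 129.9 ± 9.45 CPM and Vangl1 from 36.9 ± 2.75 to 58.3 ± 3.71 CPM (edgeR, adjusted p = 0.000349 and 0.00693). Their log2 fold changes with epithelial scaling were 0.21 and -0.52. Prickle1 fell from 62.5 ± 4.61 to 4.67 ± 1.81 CPM, Prickle2 from 17.9 ± 4.54 to 0.0896 ± 0.0129 CPM and Vangl2 from 5.69 ± 1.12 to 0.543 ± 0.165 CPM (edgeR, adjusted p = 2.85e-05, 2.09e-06 and 0.000158). Prickle2 had 3 counts in each overexpression library, so its level and SD there lie at the floor and its fold is imprecise. Members of one family therefore went in opposite directions here, Vangl1 up and Vangl2 down on the TMM scale, as Nkd2 and Nkd1 did among the targets.

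**Figure D4:**
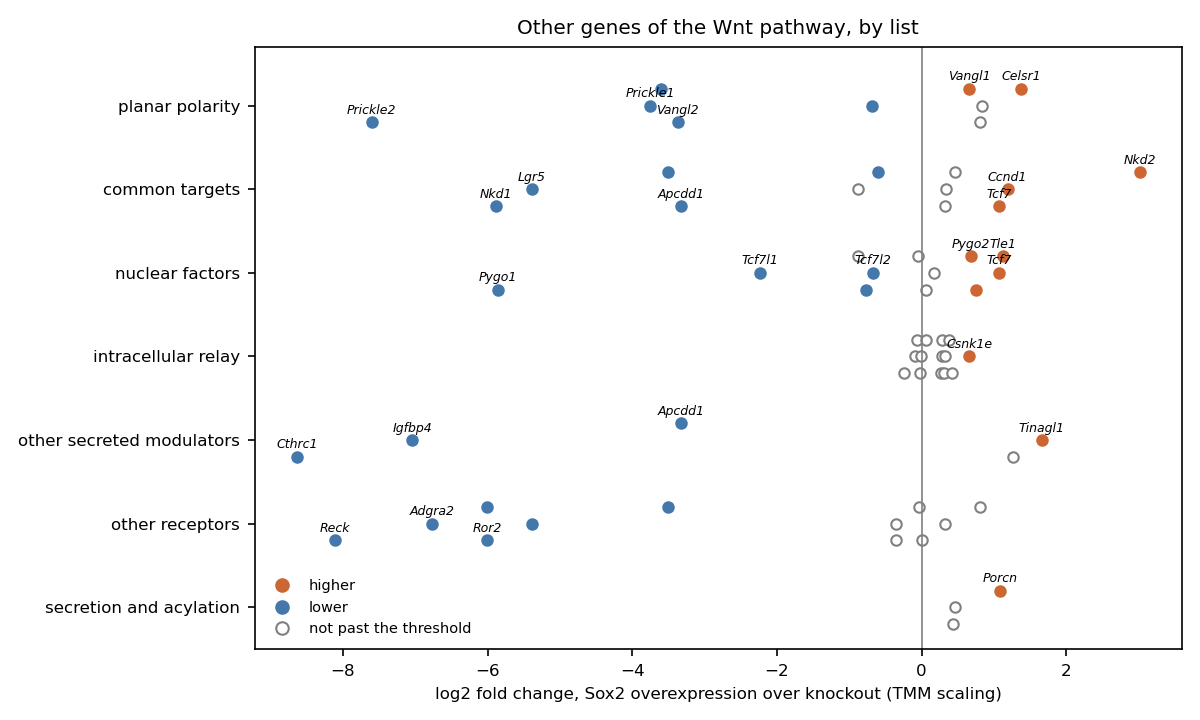
Log2 fold change of overexpression over knockout for the tested genes of the 7 other pathway lists, 1 point per gene in each list that holds it, coloured where edgeR called it higher or lower and open where not. In the intracellular relay 1 of 14 genes is called, while the other receptors hold 6 called genes, all of them lower. Of these 6, all but Adgra2 fell short of 10 counts in some overexpression library.

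The 12 members without a test were Wnt1, Wnt3, Wnt3a, Wnt6, Wnt8a, Wnt8b, Wnt9b, Rspo2, Sfrp5, Dkk1, Dkk4 and Wif1. Of these, 9 had more than 3 counts in some library. The highest was Wif1, a Wnt-binding inhibitor, with 0, 132 and 0 counts in the knockout and 0, 1 and 21 counts in the overexpression libraries. Wnt3a had 30 counts in the third overexpression library and at most 6 in any other. Each of these values came mostly from 1 library, and no direction is drawn from them. The exons of Wnt5a, Wnt7b, Wnt11, Sfrp2, Rspo3, Fzd5, Fzd6 and Axin2 overlap a gene on the other strand in GENCODE. Whether the counting used strand is not given in the sources used here, so reads of these pairs could not be told apart if it did not.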

How the data were processed

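RNA was measured in 6 libraries of PDVC57 cells, 3 labelled Sox2 KO and 3 labelled Sox2 overexpression. The authors deposited whole-number counts per Ensembl gene, with no normalization. A micro-scale RNA kit and a low-input library kit were used, per the labels' protocols. The submitters' processing notes name kallisto 0.44.0 and mm10. The annotation, the use of strand and the step from estimates to whole gene counts are not given in the sources used here. The 96 rows that are spike-in or construct sequences, at most 2.23e-05% of a library, were left out. Symbols and positions are from GENCODE M21 on GRCm38, which named 55144 of 55385 gene IDs.

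The filter on low counts was filterByExpr at 10 counts and a total of 15, and the scaling was TMM. edgeR 4.0.16 in R 4.3.3 gave the quasi-likelihood test, with the group as its only term and all 6 libraries. P-values were adjusted by Benjamini-Hochberg over 18504 genes. The standard error is the size of the log2 fold change over the square root of F. CPM values are on the TMM scale, and 3 counts are worth 0.0759 to 0.101 CPM. Epithelial scaling sets each library by the median ratio of 31 epithelial genes. Other alternatives were upper-quartile and RLE scaling, a filter of 1 count in all, robust dispersion, DESeq2 1.42.0, a block by replicate number, and leaving out each library. The fit was tested on simulated data. No pair of libraries of a group agreed within sampling noise (chi-square per degree of freedom 37.7 to 105), so none was treated as a library deposited more than once.

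Every member is accounted for. Values in every library are given for members past the threshold with a mean of at least 1 CPM in the higher group and for Axin2, Lrp5, Lrp6 and Sox2. Up to 3 genes per direction with the smallest p are named from each other pathway list. The members, lists and tests were chosen with earlier results of these data known. Protein sequences were not used here.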

Additional observations from a re-analysis of the deposited data

How the results depend on the processing

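RLE normalization, robust dispersion and DESeq2 left all 32 tested members on their side of the threshold. Of the 23 called members, 17, all of them lower, kept the call in each alternative in which they were tested, and 18 did when epithelial scaling is set aside. Epithelial scaling changed the most: 14556 genes were called, 347 higher and 14209 lower. It left 0 members higher, 0 ligands and 0 frizzled receptors among them, and gave 9 lower frizzled receptors, 2 called coreceptors (2 lower) and 1 called target (1 lower, Axin2). Of the other pathway genes it called 48, 1 higher and 47 lower. It turned Wnt7b (-0.22), Wnt4 (-0.090), Wnt10a (-1.16), Wnt11 (-1.12), Fzd5 (-0.70), Fzd6 (-0.81), Fzd7 (-0.77), Lrp5 (-0.81), Porcn (-0.10), Csnk1e (-0.52), Tle1 (-0.024), Pygo2 (-0.51), Tcf7 (-0.12) and Vangl1 (-0.52). Members near 0 also turned elsewhere: upper-quartile normalization gave -0.042 for Wnt10a and -0.00050 for Wnt11, and no filter gave 0.023 for Lrp6.

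Replicate numbers did not pair the libraries: the same-numbered deviations correlated at 0.0508, 0.0223 and -0.0399, and 1 of 3 correlated best with its own number. With the replicate block, 5593 genes (30.2%) and 22 members were called, 3 members higher and 19 lower (13.1% and 17.2% of genes). With the block, as with no filter, 0 frizzled receptors were higher, since Fzd5 missed the threshold, and the block gave -0.0058 for Wnt11.

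Leaving out 1 library at a time gave 1446 to 2599 genes higher (1446, or 7.50%, without the second and 1610 without the third knockout library), 1 to 5 members higher (1 without the second knockout library), 1 to 3 ligands higher, 3 to 7 frizzled receptors called (0 to 1 higher, 3 to 6 lower) and 0 to 1 coreceptors called or higher. In these fits 21.9% to 29.5% of all tested genes were called, 7.50% to 13.2% higher and 14.4% to 16.9% lower. With 1 library left out, the log2 fold change ran from -0.082 to 0.18 for Lrp6, -0.040 to 0.12 for Wnt10a, -0.17 to 0.37 for Wnt11 and -0.21 to 0.31 for Axin2. Without division by length, an alternative chosen after seeing the data, the mean shares were 43.5% and 67.0% for Wnt7b, 40.6% and 31.1% for Fzd1 and 57.3% and 34.2% for Sfrp2 (knockout and overexpression). The cause of these shifts was not tested. Depth limits the members and other pathway genes at or near 3 counts with overexpression, whose folds are imprecise.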
